A study of Gallus gallus with 17 samples.

Results

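The mitochondrial carrier family was represented by 34 of the 13008 chicken genes that had a probe set with 1 gene symbol on the array. The members were all genes whose annotated symbol starts with SLC25A, plus UCP3, and each was read from the probe set with the highest mean over all 17 arrays. The 34 genes had 72 probe sets among the 37693 chicken probe sets. 11 genes had 1 probe set and 23 had several.

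Mitochondrial carriers are small proteins of the inner mitochondrial membrane that exchange metabolites between the cytosol and the matrix. They pass ADP in and ATP out, bring in phosphate, acylcarnitines and cofactors, and export citrate, from which the cytosol makes the acetyl-CoA for fatty acid synthesis. Uncoupling proteins of the same family let protons leak back into the matrix. Roles given here for single carriers are those known from mammals or yeast unless stated otherwise.

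The study measured RNA of adipose tissue from male chickens 3 weeks of age in 3 lines, to look for pathways that go with leanness. 6 arrays came from broilers, 5 from Fayoumi birds of line M 5.1 and 6 from Leghorn birds of line GHs 13. The labels name no treatment and title the arrays as biological replicates within each line. In whole tissue, fewer cells of a type and less RNA per cell cannot be told apart. All levels are the deposited log2 values, on which 1 unit is a doubling. A level of a probe set cannot be set against that of another probe set.

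Several arrays did not lie with their line. Leghorn 1 had a summed level of 18.4 (log2) over 21 measured skeletal muscle markers of 27 listed, against 12.2 to 14.9 on the other 16 arrays. Broiler 1 and Leghorn 2 lay with the other line over all genes, so each comparison is given with all 17 arrays as labelled and with the 15 arrays left without those 2. Broiler 2, 3 and 4 and Leghorn 3 and 6 stood apart from the rest over all genes. Both of these groupings over all genes were taken as given and were not measured anew here. All 12 measured adipocyte markers of 13 listed were above background on every array. Background was 2.29 (log2), below which 95% of the values of 80 probe sets with no chicken target lay.

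Of the 34 carrier genes, 28 were above background on all 17 arrays. SLC25A42, a coenzyme A carrier, and SLC25A47 were above it on none, and all 5 probe sets of SLC25A42 stayed at background. SLC25A10, the dicarboxylate carrier, was above it on 3 arrays, with levels of 2.29 on broiler 3, 2.67 on broiler 4 and 2.54 on Leghorn 5. SLC25A33, UCP3 and SLC25A48 were above it on 2 arrays each. The annotation held no probe set under the symbols SLC25A11 and SLC25A44. For comparison, 70.9% of all 13008 genes were above background on all 17 arrays. This background is 1 cutoff for all probe sets. Some of the 28 members repeated a reading on several arrays, such as SLC25A25 (3.71) and SLC25A26 (4.62). Whether such readings are floors of single probe sets was not tested.

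As labelled, no carrier gene passed the test in any of the 3 comparisons (limma, Benjamini-Hochberg adjusted p under 0.05 over all probe sets). Fayoumi against broiler gave 0 of 34 members, where 0.714% of all probe sets passed. Leghorn against broiler gave 0 of 34, where 0% of probe sets passed, and Fayoumi against Leghorn gave 0 of 34, where 0.626% passed. Of all genes, read from 1 probe set each, 0.961%, 0% and 0.761% passed in that order. At an unadjusted p under 0.05 by limma the members numbered 4, 2 and 1 of 34 in that order. The shares under it were 10.2%, 4.88% and 7.4% of all probe sets and 13.9%, 6.62% and 10% of all genes. Without Leghorn 1 the counts were again 0, 0 and 0, with 0.868%, 0% and 0.679% of all probe sets called.

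With broiler 1 and Leghorn 2 left out, 2 carrier genes passed. The 2 arrays were left out for how they lay in these same data, which by itself favours differences between lines. Over all probe sets, calls of Leghorn against broiler went from 0 to 661 that way. An adjusted p from a fit without 1 or both of them therefore describes these arrays and is no independent test. An adjusted p from a fit without the arrays that stood apart is no independent test either, since those were also set apart by these data. SLC25A15, the ornithine carrier of the urea cycle and of polyamine supply, was lower in Leghorn than in broiler, 1 of 34 members where 1.75% of probe sets were called. SLC25A32, which carries folate and flavin adenine dinucleotide, was higher in Fayoumi than in Leghorn, 1 of 34 where 1.44% were called. In Fayoumi against broiler 0 of 34 passed, where 1.82% of probe sets did. These shares of members are near those of all probe sets. Of all genes, 2.29%, 1.91% and 2.45% were called in that order.

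**Figure D1:**
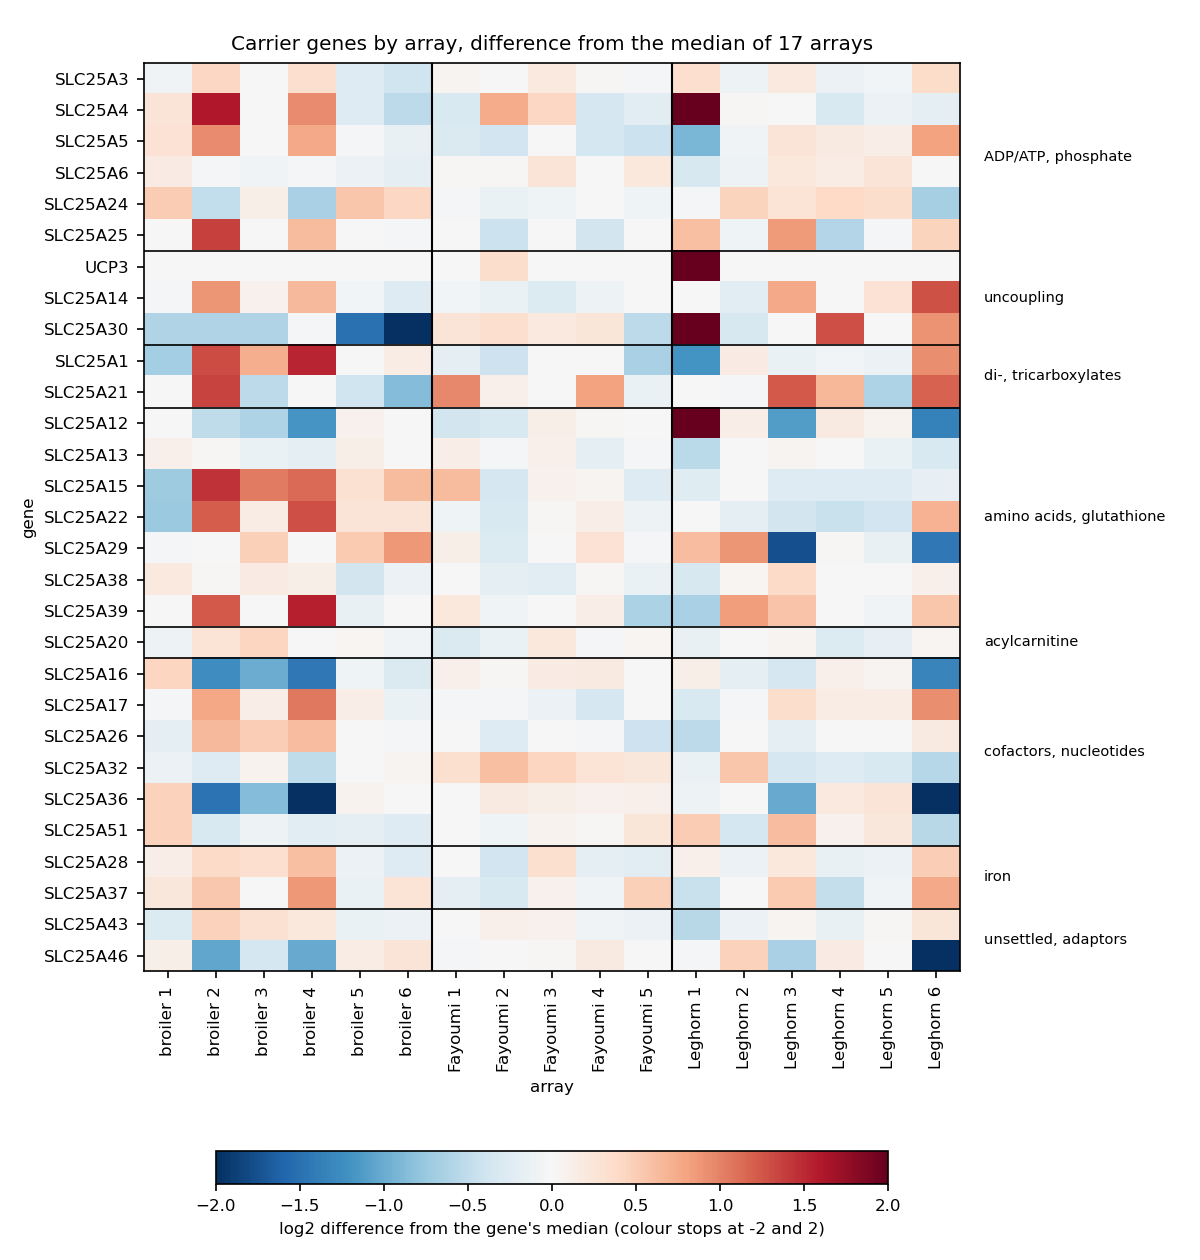
Level of 28 carrier genes above background on all arrays and of UCP3 (rows, grouped by role) on each of the 17 arrays (columns), as the log2 difference from the gene's median over arrays. Leghorn 1 is far above the other arrays for UCP3, SLC25A4 and SLC25A12, and broiler 2, broiler 4 and Leghorn 6 are low for SLC25A36, SLC25A16 and SLC25A46.

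Among the carriers of ADP, ATP and phosphate, SLC25A3 brings the phosphate for ATP synthesis into the matrix. Its level ran from 12.40 to 13.21 in broiler (median 12.76), from 12.77 to 13.00 in Fayoumi (median 12.82) and from 12.68 to 13.17 in Leghorn (median 12.87). The 3 lines overlapped throughout, and the mean differences were 0.05 (SE 0.14) for Fayoumi minus broiler and 0.10 (SE 0.14) for Leghorn minus broiler.

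SLC25A6, an ADP/ATP carrier, varied least of this group. It ran from 14.14 to 14.49 in broiler, from 14.32 to 14.59 in Fayoumi and from 14.01 to 14.58 in Leghorn, where the lowest value was that of Leghorn 1. SLC25A5, the ADP/ATP carrier of growing cells, ran from 11.42 to 12.51 in broiler (median 11.72), from 11.14 to 11.57 in Fayoumi (median 11.21) and from 10.66 to 12.37 in Leghorn (median 11.72). Its highest values were on broiler 2 (12.51), Leghorn 6 (12.37) and broiler 4 (12.33), and Fayoumi lay at the low end without being separate. The Fayoumi minus broiler difference was -0.59 (SE 0.26, unadjusted p = 0.0405, adjusted p = 0.464 by limma), and it was -0.33 (SE 0.24) without the 5 arrays that stood apart.

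SLC25A4 is the ADP/ATP carrier of heart and skeletal muscle. Outside Leghorn 1 it lay between 8.36 and 10.50, and on Leghorn 1 it was 15.30. The next values were broiler 2 (10.50), broiler 4 (9.84), Fayoumi 2 (9.64) and Fayoumi 3 (9.30). 1 array thus set the Leghorn mean of 9.86 ± 2.67 (SD, n = 6), which was 8.78 ± 0.13 (SD, n = 5) without it. Leghorn minus broiler was 0.63 (SE 0.96) with Leghorn 1 and -0.46 (SE 0.34) without it, and neither passed the test.

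SLC25A24 and SLC25A25 carry ATP-Mg against phosphate and are regulated by calcium. SLC25A25 was 3.71 on broiler 1, 3 and 5 and Fayoumi 1, 3 and 5, and highest on broiler 2 (5.07), Leghorn 3 (4.55) and broiler 4 (4.34). Its lines overlapped and its difference of -0.49 (SE 0.28) between Fayoumi and broiler did not pass the test.

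The 2 probe sets of SLC25A24 placed the Fayoumi line differently. The brighter one was 10.41, 10.32, 10.37, 10.45 and 10.37 on Fayoumi 1 to 5. It ran from 9.80 to 10.9999 in broiler (median 10.72) and from 9.78 to 10.89 in Leghorn (median 10.76), so Fayoumi lay inside both ranges. The Fayoumi minus broiler difference was -0.14 (SE 0.24, adjusted p = 0.952 by limma). Without the 5 arrays that stood apart it was -0.56 (SE 0.10) and passed, with an adjusted p of 0.0481 by limma. In that fit 0.504% of all probe sets passed. The 5 arrays were set apart by how they lay in these same data, so this pass is no independent test. Broiler 1, which did not lie with its line, was among the broiler arrays kept. The adjusted p ran from 0.00909 to 1 over all 28 alternatives.

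The dimmer probe set of SLC25A24 was the only 1 of the 72 carrier probe sets that passed as labelled. Of all probe sets, 0.714% passed for Fayoumi against broiler and 0.626% for Fayoumi against Leghorn. The dimmer probe set read 5.67, 5.78, 6.36, 5.75 and 4.53 on Fayoumi 1 to 5. In broiler it ran from 2.85 to 3.84 and in Leghorn from 3.81 to 3.84, so that all 5 Fayoumi arrays lay above all 12 others. Such lack of overlap held for 3.01% (broiler) and 2.54% (Leghorn) of all probe sets. Broiler 5 and Leghorn 3, 5 and 6 shared the reading 3.841, and broiler 1 and 6 shared 3.818. Whether shared readings are a floor of this probe set, against which the folds would then stand, was not tested. Fayoumi was higher than broiler by 1.98 (SE 0.25, 3.93-fold, adjusted p = 0.00135 by limma) and higher than Leghorn by 1.79 (SE 0.25, 3.46-fold, adjusted p = 0.0027 by limma). Over 27 alternatives the adjusted p ran from 2.39e-05 to 0.0525 against broiler and from 6.2e-05 to 0.0305 against Leghorn. The dimmer probe set is a member's second probe set and was singled out after its values were seen.

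**Figure D2:**
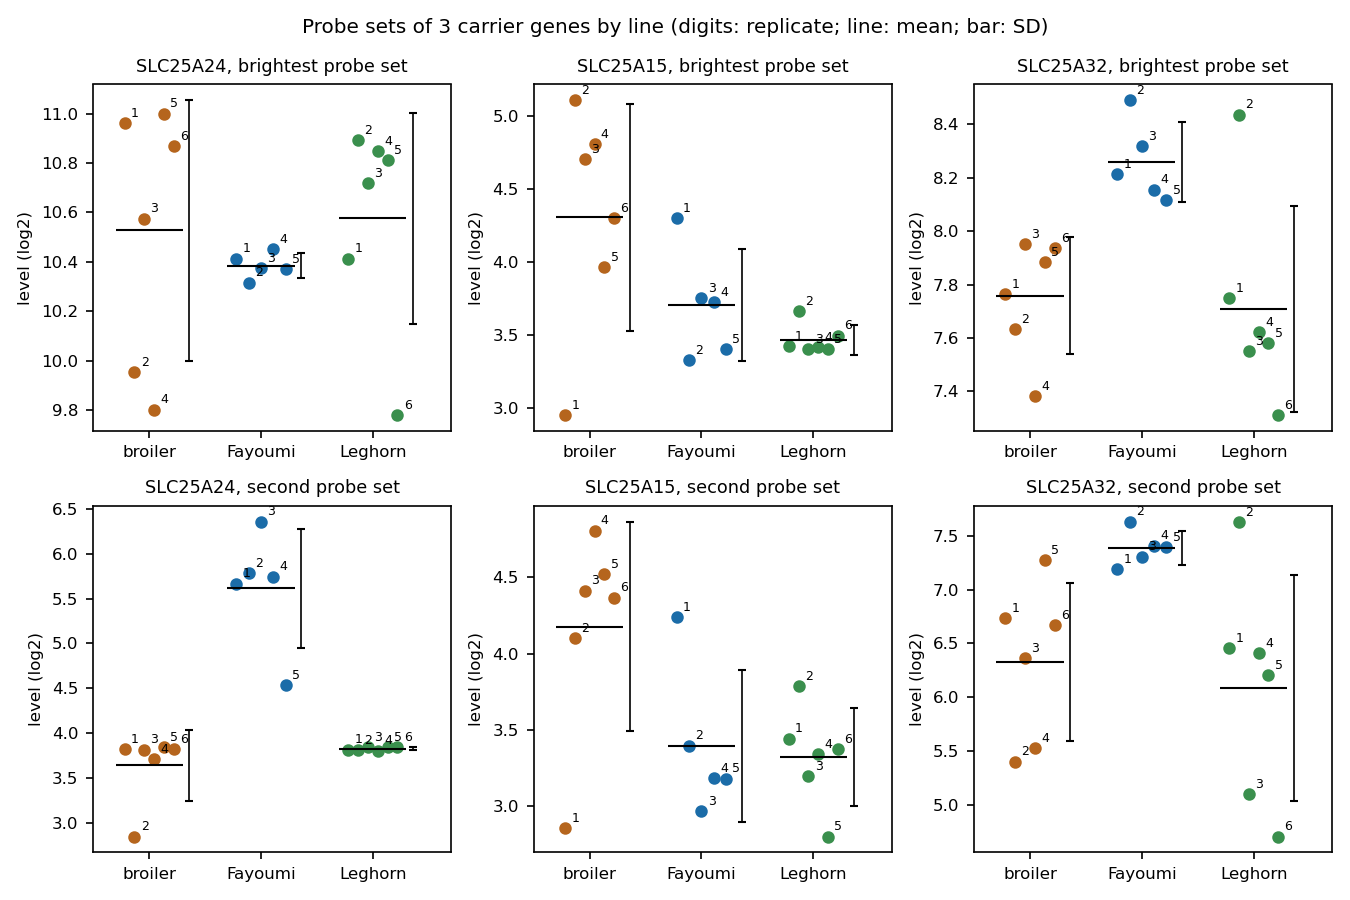
Levels (log2) of the brightest probe set (top) and the second probe set (bottom) of SLC25A24, SLC25A15 and SLC25A32 by line. Points are arrays with their replicate number, horizontal lines are means and bars are SD (n = 6, 5 and 6). The second probe set of SLC25A24 is at 4.53 or above on all 5 Fayoumi arrays and at 3.84 or below on all others.

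Among the uncoupling proteins, UCP3 is the avian uncoupling protein, known in chickens as a gene of skeletal muscle. It was 9.56 on Leghorn 1 and 2.60 on Fayoumi 2. On each of the other 15 arrays it stood at the lowest value of the data, 2.26, below background. No line difference of UCP3 can be read from these arrays, since the Leghorn mean rests on Leghorn 1 alone.

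SLC25A30, a kidney-type relative of the uncoupling proteins, was the most variable member outside Leghorn 1, with a range of 3.45 over the other 16 arrays. It ran from 3.12 to 5.26 in broiler (median 4.69), from 4.77 to 5.62 in Fayoumi (median 5.52) and from 4.96 to 7.41 in Leghorn (median 5.74). The 3 broiler arrays 1, 2 and 3 were at 4.69, broiler 6 was lowest, and the highest values were Leghorn 1 (7.41), Leghorn 4 (6.57) and Leghorn 6 (6.18). Leghorn minus broiler was 1.58 (SE 0.43, unadjusted p = 0.00231, adjusted p = 0.835 by limma) and 1.29 (SE 0.38) without Leghorn 1.

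On 15 arrays, all Leghorn values of SLC25A30 (from 5.29) lay above all broiler values (to 5.26). Such lack of overlap held for 2.42% of all probe sets and 3.23% of all genes. The difference was then 1.84 (SE 0.46, 3.58-fold) with an adjusted p of 0.0774 by limma, still short of the threshold. These 15 arrays include Leghorn 1. The Leghorn mean was 6.15 with Leghorn 1 and 5.83 without it, against 4.31 in broiler. Fayoumi minus broiler was 1.02 (SE 0.45, adjusted p = 0.461 by limma) as labelled. Over 28 alternatives the Fayoumi difference passed only with array weights, at 1.64 and an adjusted p of 0.0182 by limma, in a range from 0.0182 to 0.68.

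SLC25A14, the other relative of the uncoupling proteins, ran from 7.81 to 9.36 over all arrays. Its highest values were on Leghorn 6 (9.36), broiler 2 (8.96), Leghorn 3 (8.83) and broiler 4 (8.73), all arrays that stood apart. No comparison of its brighter probe set passed.

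SLC25A1 exports citrate for fatty acid synthesis. It ran from 8.43 to 10.64 in broiler (median 9.55), from 8.46 to 9.12 in Fayoumi (median 8.91) and from 7.92 to 10.05 in Leghorn (median 9.03). The lowest value was Leghorn 1 and the highest were broiler 4 (10.64), broiler 2 (10.42) and Leghorn 6 (10.05). Fayoumi minus broiler was -0.76 (SE 0.40, adjusted p = 0.536 by limma). On 15 arrays it was -0.99 (SE 0.38, adjusted p = 0.257 by limma), and the lowest broiler value and the highest Fayoumi value, both 9.12, just missed each other. Without the 5 arrays that stood apart it was -0.08 (SE 0.32).

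SLC25A21, the oxodicarboxylate carrier of lysine breakdown, ran from 2.63 to 4.86 with all 3 lines overlapping. Its highest values were broiler 2 (4.86), Leghorn 3 (4.72) and Leghorn 6 (4.69).

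SLC25A20 brings acylcarnitines into the matrix for fatty acid oxidation. It ran from 10.12 to 10.66 in broiler (median 10.26), from 9.95 to 10.44 in Fayoumi (median 10.21) and from 9.97 to 10.29 in Leghorn (median 10.16). The lines overlapped, and the differences against broiler were -0.13 (SE 0.11) for Fayoumi and -0.18 (SE 0.10) for Leghorn, both unchanged in call under all 28 alternatives.

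**Figure D3:**
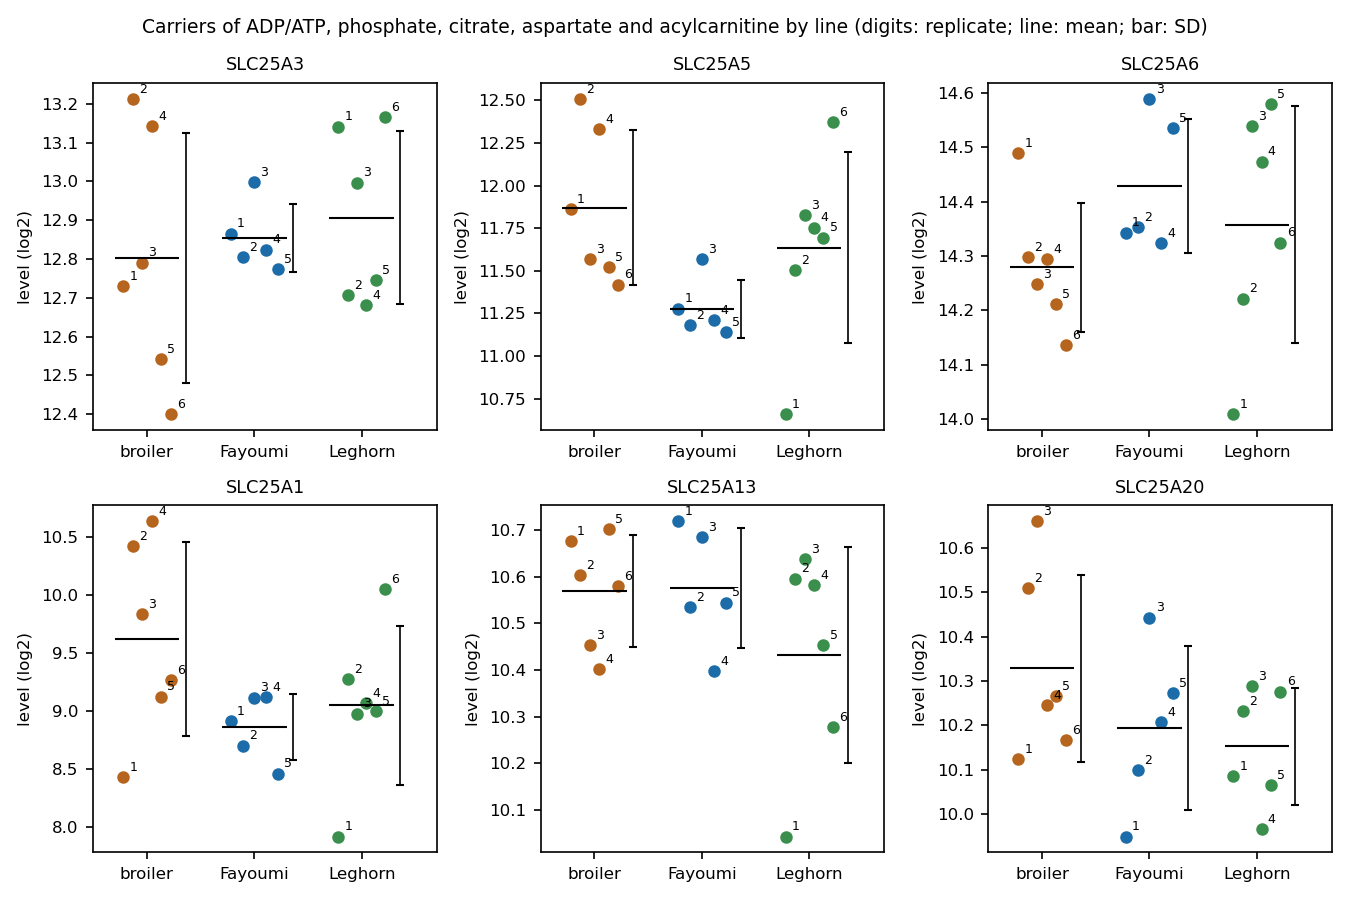
Levels (log2) of SLC25A3, SLC25A5, SLC25A6, SLC25A1, SLC25A13 and SLC25A20 by line. Points are arrays with their replicate number, horizontal lines are means and bars are SD (n = 6, 5 and 6). The lines overlap for all 6 genes, and Leghorn 1 is the lowest array for SLC25A5, SLC25A6, SLC25A1 and SLC25A13.

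Among the amino acid carriers, SLC25A12 and SLC25A13 exchange aspartate for glutamate and serve the malate-aspartate shuttle. SLC25A12, the form of muscle and brain, was 12.08 on Leghorn 1 and lay between 8.74 and 10.26 on the other arrays. The lowest of these were Leghorn 6 (8.74), broiler 4 (8.91) and Leghorn 3 (8.96). SLC25A13, the form of liver, was 10.04 on Leghorn 1 and between 10.28 and 10.72 elsewhere, the narrowest range of the 28 members over the other 16 arrays (0.44). Neither gene passed in any comparison.

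SLC25A15 read 2.95 on broiler 1 and 3.97 to 5.11 on the other 5 broiler arrays. In Fayoumi it was 4.31, 3.33, 3.76, 3.73 and 3.41, and in Leghorn it ran from 3.41 to 3.67 (median 3.42). Thus 5 of 6 broiler arrays lay above all Leghorn arrays and broiler 1 lay below all of them. As labelled, Leghorn minus broiler was -0.84 (SE 0.29, unadjusted p = 0.0119, adjusted p = 0.852 by limma).

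On 15 arrays, SLC25A15 was lower in Leghorn (3.43 ± 0.04 SD, n = 5) than in broiler (4.58 ± 0.45 SD, n = 5). The difference was -1.15 (SE 0.21, 2.21-fold) with an adjusted p of 0.0148 by limma. Leghorn 3, Leghorn 5 and Fayoumi 5 shared the reading 3.4086. Whether a shared reading is a floor of this probe set, which would make the Leghorn SD small, was not tested. Leaving out broiler 1 alone gave -1.11 with an adjusted p of 0.0403 by limma, and over 28 alternatives the adjusted p ran from 0.0148 to 1. The second probe set of SLC25A15 gave -1.21 (SE 0.22, adjusted p = 0.0136 by limma) with the 15 arrays. For Fayoumi against broiler, the brighter probe set gave -0.87 (SE 0.21, adjusted p = 0.0643 by limma) and the second gave -1.05 (SE 0.22, adjusted p = 0.0325 by limma). Over 27 alternatives the adjusted p of the second probe set ran from 0.0136 to 1 for Leghorn and from 0.0325 to 0.958 for Fayoumi against broiler.

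On the brighter probe set of SLC25A15, the higher broiler values were on arrays that stood apart. Broiler 2, 4 and 3 read 5.11, 4.81 and 4.71, against 4.30 and 3.97 on broiler 6 and 5. Leghorn 3 and 6, which also stood apart, read 3.41 and 3.50. Without those 5 arrays the difference was -0.26 (SE 0.32), with broiler 1 among the 3 remaining broiler arrays. The second probe set did not keep this order, with 4.10, 4.80 and 4.41 on broiler 2, 4 and 3. It read 4.37 and 4.52 on broiler 6 and 5.

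SLC25A22, a glutamate carrier, was highest on broiler 4 (10.997), broiler 2 (10.92) and Leghorn 6 (10.40), and lowest on broiler 1 (8.96). SLC25A29, a carrier of basic amino acids, ran from 10.12 to 11.28 except on Leghorn 3 (8.64) and Leghorn 6 (8.97). SLC25A38, the glycine carrier for haem synthesis, ran from 6.83 to 7.58. SLC25A39, the glutathione carrier, ran from 2.51 on Leghorn 1 to 4.71 on broiler 4. None of these 4 passed in any comparison as labelled.

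Among the carriers of cofactors and nucleotides, SLC25A32 was highest in Fayoumi. It read 8.21, 8.49, 8.32, 8.16 and 8.12 there, from 7.38 to 7.95 in broiler (median 7.83), and 7.75, 8.44, 7.55, 7.62, 7.58 and 7.31 on Leghorn 1 to 6. All 5 Fayoumi arrays lay above all 6 broiler arrays, and above all Leghorn arrays but Leghorn 2. As labelled, Fayoumi was higher by 0.50 (SE 0.17, adjusted p = 0.269 by limma) than broiler and by 0.55 (SE 0.17, adjusted p = 0.22 by limma) than Leghorn. It was the 1 of 34 members without overlap between Fayoumi and broiler, where 3.01% of all probe sets had none. In Leghorn against broiler 0 members were without overlap (0.0186% of probe sets), and in Fayoumi against Leghorn 0 (2.54%). Of all genes, 4.34%, 0.0231% and 3.8% had no overlap in that order.

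With the 15 arrays, SLC25A32 was higher in Fayoumi (8.26 ± 0.15 SD, n = 5) than in Leghorn (7.56 ± 0.16 SD, n = 5) by 0.70 (SE 0.12, 1.62-fold, adjusted p = 0.00948 by limma). Leghorn 2, left out here, read 8.44 for this gene, inside the Fayoumi range and above all broiler arrays. With Leghorn 2 the Leghorn mean was 7.71 ± 0.38 (SD, n = 6). Over 28 alternatives the adjusted p of Fayoumi against Leghorn ran from 0.00834, without Leghorn 2 alone, to 0.582. Against broiler the difference was 0.50 (SE 0.12) with an adjusted p of 0.0562 by limma. The second brightest of its 6 probe sets read 7.19 to 7.63 in Fayoumi, 5.40 to 7.28 in broiler and 4.70 to 7.63 in Leghorn. Its Fayoumi minus Leghorn difference with the 15 arrays was 1.61 (SE 0.41, adjusted p = 0.0941 by limma). The third brightest gave 0.56 (SE 0.15, adjusted p = 0.121 by limma) in that comparison. The fourth overlapped across lines, at 5.35 to 6.26 in Fayoumi, 3.07 to 5.91 in broiler and 3.15 to 6.08 in Leghorn.

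Once broiler 1 and Leghorn 2 were left out, 6 of 34 members had no overlap between Fayoumi and broiler, where 6.72% of all probe sets and 10.3% of all genes had none. SLC25A32, SLC25A16, SLC25A6 and SLC25A51 were higher in Fayoumi and SLC25A1 and SLC25A22 lower. Between Leghorn and broiler these were 2 members, SLC25A15 and SLC25A30 (2.42% of probe sets and 3.23% of genes). Between Fayoumi and Leghorn it was SLC25A32 alone (4.64% of probe sets and 6.92% of genes).

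SLC25A16 and SLC25A36, chosen after their values were seen, varied widely between arrays of broiler and of Leghorn. Their ranges over the 16 arrays other than Leghorn 1 were 1.85 and 2.54, beside a median of 1.45 over 28 members. They do not stand for all members, since SLC25A13 had a range of 0.44. SLC25A36, a carrier of pyrimidine nucleotides, was 8.64 on broiler 4, 8.69 on Leghorn 6, 9.25 on broiler 2, 9.71 on Leghorn 3 and 9.86 on broiler 3. On the other 12 arrays it was between 10.63 and 11.18. SLC25A16, linked to coenzyme A, was 7.67, 7.78, 7.85 and 8.11 on broiler 4, Leghorn 6, broiler 2 and broiler 3, and between 8.77 and 9.52 elsewhere. For Fayoumi minus broiler, SLC25A36 gave 0.75 (SE 0.48) as labelled and -0.08 (SE 0.11) without the 5 arrays, and SLC25A16 gave 0.70 (SE 0.33) and 0.08 (SE 0.14).

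SLC25A17, which carries coenzyme A and related cofactors into peroxisomes, was highest on broiler 4 (9.12), Leghorn 6 (9.01) and broiler 2 (8.85). SLC25A26, which carries S-adenosylmethionine, was highest on broiler 2 (5.27), broiler 4 (5.24) and broiler 3 (5.11), and lowest on Leghorn 1 (4.10). SLC25A51, the carrier of nicotinamide adenine dinucleotide, ran from 9.69 on Leghorn 6 to 10.86 on Leghorn 3. No comparison of these 3 genes passed as labelled.

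SLC25A37 and SLC25A28 are the mitoferrins, which bring iron into the matrix for haem and iron-sulfur clusters. SLC25A37, the form of red cell precursors, ran from 5.86 to 6.85 in broiler (median 6.24), from 5.68 to 6.46 in Fayoumi (median 5.92) and from 5.51 to 6.75 in Leghorn (median 5.95). SLC25A28 ran from 7.24 to 8.23, highest on broiler 4. For both genes the lines overlapped in every comparison.

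SLC25A46, an outer membrane adaptor of mitochondrial fission, was 5.31 on Leghorn 6, 6.32 on broiler 2, 6.35 on broiler 4 and 6.70 on Leghorn 3, against 7.002 to 7.81 elsewhere. SLC25A43, whose substrate is not settled, ran from 7.50 on Leghorn 1 to 8.52 on broiler 2. SLC25A48 was at or near background on every array, with a highest value of 2.30.

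**Figure D4:**
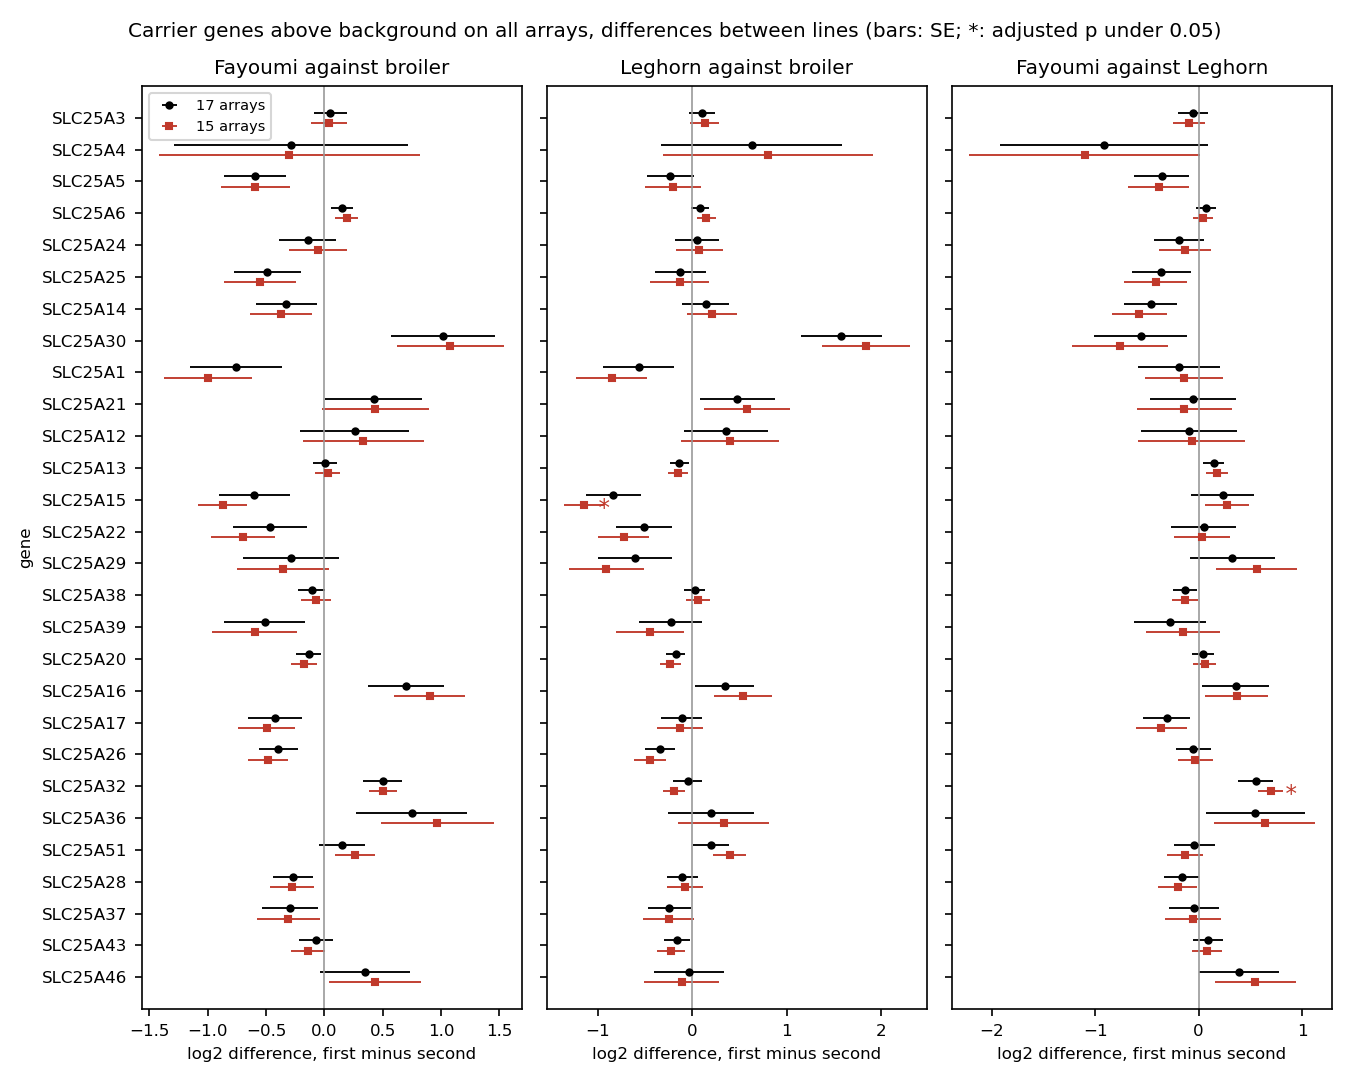
Log2 differences between lines for 28 carrier genes above background on all arrays, by limma, with SE bars. Black circles are all 17 arrays as labelled and red squares are the 15 arrays without broiler 1 and Leghorn 2. Stars mark the 2 differences with an adjusted p under 0.05, SLC25A15 in Leghorn against broiler and SLC25A32 in Fayoumi against Leghorn, both with 15 arrays.

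Over the 28 members above background on all arrays, the median difference was -0.14 for Fayoumi minus broiler (11 higher, 17 lower), beside -0.04 over 9225 such genes. It was -0.08 for Leghorn minus broiler (12 higher, 16 lower), beside -0.02 over all. It was -0.05 for Fayoumi minus Leghorn (11 higher, 17 lower), beside 0.00 over all. Of the 9225 genes, 44.9%, 46.1% and 48.9% were higher in that order. Without Leghorn 1, Leghorn minus broiler gave -0.06 (10 higher, 18 lower), beside -0.0045 over all genes, of which 48.7% were higher. Fayoumi minus Leghorn then gave -0.0066 (13 higher, 15 lower), beside -0.0228 over all genes, of which 46.2% were higher. The range of a member over the 16 arrays other than Leghorn 1 had a median of 1.45, beside 1.57 over all 9225 genes.

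Several arrays held the highest or lowest value of several members, given here beside the share of all genes. Broiler 2 held the highest value of 7 of the 28 members (25.0%, against 11.5% of the 9225 genes) and broiler 4 that of 6 (21.4%, against 13.5%). Broiler 2 was highest for SLC25A3, SLC25A5, SLC25A15, SLC25A21, SLC25A25, SLC25A26 and SLC25A43. Broiler 4 was highest for SLC25A1, SLC25A17, SLC25A22, SLC25A28, SLC25A37 and SLC25A39. Leghorn 6 held the lowest value of 5 members (17.9%, against 17.3% of genes), which were SLC25A12, SLC25A24, SLC25A32, SLC25A46 and SLC25A51. It held the highest value of 1 member (3.57%, against 17.1% of genes). Broiler 6 held the lowest value of 4 members (14.3%, against 5.59% of genes), which were SLC25A3, SLC25A4, SLC25A21 and SLC25A30. Leghorn 1 held that of 7. The summed level of all 10 listed endothelial markers was between 14.28 and 14.74 (log2) on the 5 arrays that stood apart and between 14.61 and 15.39 on the others, where Leghorn 1 was lowest. The median deviation of that list did not follow its sum, at 0.06 on broiler 4 and 0.00 on broiler 3 against 0.03 on broiler 1 and 0.04 on broiler 5. Leghorn 3 and 6 had the highest sums of 8 measured liver and epithelial markers of 12 listed (14.80 and 14.73, against 10.73 to 14.06 elsewhere) and of 11 measured macrophage markers of 12 listed (16.08 and 16.05, against 15.24 to 15.97). Broiler 2 had the highest sum of 7 measured smooth muscle and pericyte markers of 10 listed (13.97, against 11.83 to 12.92). Such sums weigh the brightest markers of a list most and do not show a shift of the whole list. Between 2 and 5 of the 8 liver and epithelial markers were at background on each array. The part of these marker levels in the members' values was not tested.

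Leghorn 1 was described by itself because of its muscle RNA. On it 1 of the 21 measured muscle markers was at background, against 4 to 13 on the other arrays. MYL1, a myosin light chain of fast fibres, was 15.51 there, 10.89 on Fayoumi 2 and 9.72 on Fayoumi 3. TTN, the giant sarcomere protein, was 14.65, 8.56 and 7.12 on the same 3 arrays, and 2.32 on broiler 2. These 2 markers do not stand for the list. By the summed level the highest array outside Leghorn 1 was a broiler array (14.93), above all Fayoumi arrays (to 14.26). Of the 21 markers, 4 to 11 were at background in Fayoumi and 10 to 12 in broiler. UCP3 was above background on Fayoumi 2 but not on Fayoumi 3. The summed adipocyte marker level was 16.7 on Leghorn 1, against 16.98 to 17.45 elsewhere.

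On Leghorn 1, 4 of 34 carrier genes were above all other arrays. UCP3 exceeded the highest other array by 6.96, SLC25A4 by 4.80, SLC25A12 by 1.82 and SLC25A30 by 0.84. SLC25A3 came next among the members above background, 0.07 under the highest other array. These are values of 1 array, with no replicate check.

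Another 7 members were below all other arrays on Leghorn 1, among them SLC25A1 by 0.51, SLC25A5 by 0.48, SLC25A43 and SLC25A13. The other 3 were SLC25A6, SLC25A26 and SLC25A39. Over the 28 members above background on all arrays, 10.7% were above and 25.0% below the other 16 arrays, beside 8.36% and 18.9% of the 9225 genes. The part of muscle RNA in these values was not tested.

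**Figure D5:**
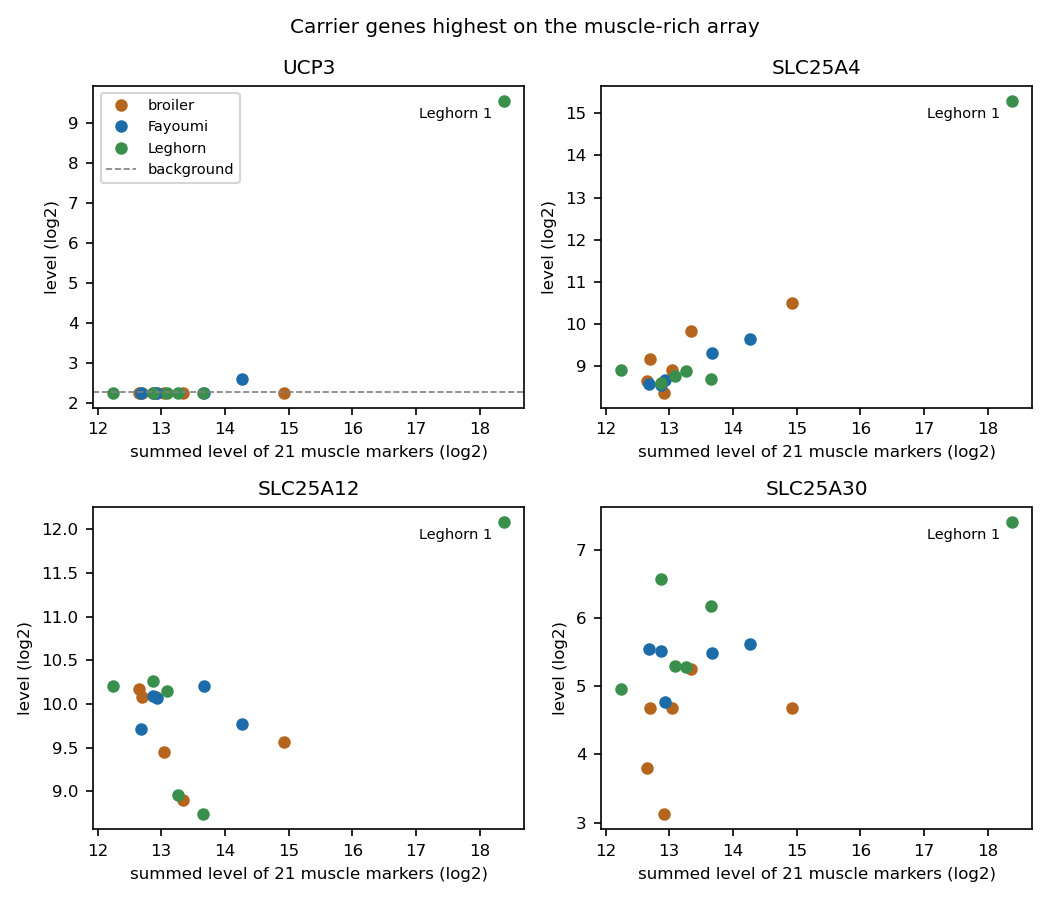
Level (log2) of UCP3, SLC25A4, SLC25A12 and SLC25A30 against the summed level of 21 muscle markers (log2) on the 17 arrays, coloured by line. The dashed line for UCP3 is background (2.29). Leghorn 1 has the highest marker level (18.4) and the highest value of all 4 genes, and UCP3 is above background on only 1 other array, Fayoumi 2.

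Genes that work beside the carriers were read from 3 lists. The background for their calls as labelled is the same 0.714%, 0% and 0.626% of all probe sets as for the carriers, and with 15 arrays it is 1.82%, 1.75% and 1.44%. Of 11 measured genes that insert carriers into the inner membrane (13 listed), 0 passed as labelled in any comparison. TIMM9, a chaperone between the membranes, read 9.15 to 9.60 in Fayoumi, 8.74 to 9.12 in broiler and 8.76 to 9.10 in Leghorn. Fayoumi was separate from both other lines, which overlapped each other, where 3.01% of all probe sets had no overlap between Fayoumi and broiler and 2.54% none between Fayoumi and Leghorn. Its difference of 0.38 (SE 0.10) to broiler had an adjusted p of 0.109 by limma. TIMM8A gave -0.42 (SE 0.18, adjusted p = 0.426 by limma). TOMM70, the outer membrane receptor for carrier precursors, was higher in Leghorn than in broiler on 15 arrays by 1.26 (SE 0.23, adjusted p = 0.0121 by limma) and lower in Fayoumi than in Leghorn, at -1.01 (adjusted p = 0.0491 by limma). Over 27 alternatives the adjusted p of TOMM70 ran from 0.0121 to 1 and from 0.00974 to 0.724 in these comparisons, and 2 passed in each. With Leghorn 1 also left out of the 15 arrays, Leghorn against broiler still passed (1.15, adjusted p = 0.0282 by limma). Fayoumi against Leghorn then did not pass. All 17 arrays gave 0.87 (adjusted p = 0.852 by limma) and -0.88 (adjusted p = 0.428 by limma) for TOMM70.

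Of 16 measured other transporters of the mitochondrial membranes (19 listed), 1 passed as labelled. SFXN1, a serine transporter, read 9.92, 10.22, 10.16, 9.82 and 10.06 in Fayoumi and 8.56 to 9.52 in Leghorn. It was higher in Fayoumi by 0.96 (SE 0.20, adjusted p = 0.0439 by limma), and the adjusted p ran from 5.43e-05 to 0.161 over 27 alternatives, of which 8 passed. Leaving out any 1 array other than broiler 2, broiler 4 and Leghorn 6 ended the call (adjusted p between 0.0501 and 0.134 by limma). MICU2, a regulator of the calcium uniporter, gave 1.33 (SE 0.40, adjusted p = 0.203 by limma) for Fayoumi minus broiler. With the 15 arrays VDAC3, an outer membrane pore, was lower than in broiler in Fayoumi, at -0.33 (adjusted p = 0.0266 by limma), and in Leghorn, at -0.47 (adjusted p = 0.00253 by limma). Over 27 alternatives the adjusted p of VDAC3 ran from 0.02 to 0.988 and from 0.00253 to 1 in these comparisons, and 2 passed in each. All 17 arrays gave -0.24 (adjusted p = 0.516 by limma) and -0.30 (adjusted p = 0.852 by limma) for VDAC3.

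Of 15 measured enzymes that use carrier substrates (21 listed), 0 passed as labelled. CRAT, which makes acetylcarnitine, gave 0.63 (SE 0.18, adjusted p = 0.168 by limma) for Fayoumi minus broiler, and GOT1, the cytosolic aspartate aminotransferase, gave -0.77 (SE 0.29, adjusted p = 0.368 by limma). With the 15 arrays, ACLY, which splits the citrate that SLC25A1 exports, was lower in Leghorn than in broiler, at -1.82 (SE 0.29, adjusted p = 0.00576 by limma), where all 17 arrays gave -1.32 (adjusted p = 0.835 by limma). It was higher in Fayoumi than in Leghorn by 2.04 (SE 0.29, adjusted p = 0.0029 by limma), where all 17 arrays gave 1.77 (adjusted p = 0.0751 by limma). CPT1A, which makes the acylcarnitines that SLC25A20 carries, was higher in Leghorn than in broiler on 15 arrays by 2.01 (SE 0.44, adjusted p = 0.0374 by limma). All 17 arrays gave 1.32 for CPT1A (SE 0.55, adjusted p = 0.852 by limma), and over 27 alternatives, of which 2 passed, the adjusted p ran from 0.0374 to 1. The values of TOMM70, VDAC3, ACLY and CPT1A were given after they were seen to pass. Of these genes, ACLY alone was not followed over the alternatives, so how its calls depend on them is not known. The number of genes of each list that passed with 15 arrays is not given. These calls therefore cannot be set against the shares of all probe sets.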

How the data were processed

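Total RNA of adipose tissue was hybridised to 17 Affymetrix chicken arrays. The authors deposited 1 normalised log2 value per probe set and array. RMA, GCRMA and R 2.13.2 are named in the submitters' processing notes, with no roles. Which of the 2 methods gave the values is not given in the sources used here, and 37.1% of values share the lowest value of 2.26. Probe-level signals were not used here. The precision of a line difference is limited by the 5 or 6 arrays of each line and their spread. Arrays were grouped by the labels. The 3 comparisons between lines were fitted in limma 3.58.1 (R 4.3.3) over all 37693 chicken probe sets and all 17 arrays, two-sided, with Benjamini-Hochberg adjustment. The code was tested on simulated data. No-overlap counts used a tolerance of 0.001.

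Members and lists were chosen with earlier results of these data known. Named genes were members called in a comparison, members fixed for roles in fat and muscle, those farthest above or below the other arrays on Leghorn 1, and the 2 genes of each related list with the smallest adjusted p. All other genes were named after their values were seen. Probe sets were named from the platform annotation, and RefSeq's gene table gave no other name for any of the 34 symbols. A gene absent from that table would have kept its symbol.

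Alternatives were arrays left out, the replicate number as a block, fits of 2 lines, other variance models, array weights, a common median, background filters and the mean of a gene's probe sets.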

Additional observations from a re-analysis of the deposited data

Results flagged for a closer look

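In 14 of 95 groups of arrays examined (1 of the 34 carrier genes or the second probe set of SLC25A24, in 1 line, leaving out 10 groups whose arrays all read the same), 1 array lay far from the rest of its line, beyond Dixon's 95% critical value. The rate of 1 in 20 groups by chance holds for normal and independent values, so the 14 cannot be set against it. For UCP3, SLC25A10, SLC25A33 and SLC25A48 nearly all other arrays shared the lowest value, where a single reading above it is enough. UCP3 was 9.56 on Leghorn 1 and 2.60 on Fayoumi 2, with every other array of those lines at 2.26. SLC25A4 was 15.30 on Leghorn 1, with the other Leghorn arrays between 8.60 and 8.92. SLC25A15 was 3.67 on Leghorn 2 (others 3.41 to 3.50), and SLC25A16 was 7.78 on Leghorn 6 (others 8.77 to 9.21). SLC25A30 was 4.77 on Fayoumi 5 (others 5.48 to 5.62), and SLC25A46 was 7.53 on Fayoumi 4 (others 7.33 to 7.38). The second probe set of SLC25A24 was 2.85 on broiler 2 (others 3.71 to 3.84). Near background, SLC25A10 was 2.67 on broiler 4 and 2.54 on Leghorn 5, SLC25A33 was 2.37 on broiler 2 and 2.34 on Leghorn 6, and SLC25A48 was 2.30 on broiler 6. SLC25A51 was 10.70 on broiler 1 (others 9.93 to 10.13).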

How the results depend on the processing

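The counts of 0 called members as labelled became 1 or 2 under some alternatives. Fayoumi against broiler gave 1 (SLC25A24) without the 5 arrays that stood apart, where 0.504% of all probe sets passed. It gave 2 (SLC25A24 and SLC25A30) with array weights (3.5%) and 1 with the mean of all probe sets (0.722%). Leghorn against broiler gave 1 (SLC25A15) with the 15 arrays and also without Leghorn 1 among these (1.75% and 1.78% of probe sets). Fayoumi against Leghorn gave 1 (SLC25A32) in both of those fits (1.44% and 1.75%). It gave 2 (SLC25A24 and SLC25A32) with array weights, where 5.42% of probe sets passed. With single arrays left out, the count stayed 0 for Fayoumi against broiler. It rose to 1 for Leghorn against broiler without broiler 1 (0.313% of probe sets). It rose to 1 for Fayoumi against Leghorn without Leghorn 2 (1.14%). The difference of SLC25A24 between Fayoumi and broiler turned from -0.14 to 0.92 with the mean of its probe sets (adjusted p = 0.0499 by limma), since its second probe set moved the other way. Over all probe sets, the 269 calls of Fayoumi against broiler and 236 of Fayoumi against Leghorn became 1319 and 2042 with array weights (9 against 0 for Leghorn against broiler), 505 and 426 of 21177 with only probe sets above background on 5 arrays or more, 881 and 661 without broiler 1 and Leghorn 1 and 2 (672 for Leghorn against broiler), 190 and 397 without the 5 arrays that stood apart (1 for Leghorn against broiler), and 148 to 613 and 158 to 429 with 1 array left out (0 to 118 for Leghorn against broiler). In all, 3325 of 3393 recomputed values kept their side of the threshold or, for counts and medians, stayed near the main value. A difference that passed in neither fit was counted as kept even where its sign changed, as for SLC25A4 in Leghorn against broiler.

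The members' median ran from -0.22 to -0.02 for Fayoumi minus broiler, and changed sign to 0.03 for Leghorn minus broiler (array weights) and to 0.01 for Fayoumi minus Leghorn (without Leghorn 6). With the replicate number as a block, 0 members passed and calls over all probe sets fell to 141 for Fayoumi against broiler and 139 for Fayoumi against Leghorn. Only 4 of 16 same-numbered pairs correlated above 0.1, so the numbers were not taken as pairs.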

Other observations

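The second probe set of SLC25A14, chosen after its values were seen, read 4.55, 4.05, 4.26 and 3.81 on Leghorn 3 to 6 and 3.43 and 3.42 on Leghorn 1 and 2. In broiler it ran from 2.99 to 3.84 and in Fayoumi from 3.42 to 3.51. Leghorn was higher than broiler on 15 arrays by 0.74 (SE 0.17, adjusted p = 0.0472 by limma), but all 17 arrays gave 0.54 (SE 0.18, adjusted p = 0.852 by limma). Over 27 alternatives the adjusted p ran from 0.00456 to 1. The brighter SLC25A14 probe set did not pass in this comparison.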
